A study of Mus musculus with 12 samples.

Results

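Resident (CD45.2) and recruited (CD45.1) macrophages of the infarct zone of the mouse heart were compared across all measured genes, 2 days after ischemia/reperfusion. The comparison used the 3 CD45.2 and the 3 CD45.1 infarct zone libraries, which are 6 of the 12 libraries of the study and were taken by their labels. The other 6 libraries hold the same populations from the remote myocardium, away from the ischemic area. Host mice carried CD45.2 and the alleles Mx1CreMybflox/flox, so that polyI:C, which switches on Mx1-Cre, deleted Myb in their blood-forming cells. Bone marrow of CD45.1 mice on the C57BL/6 background was then transplanted, the coronary artery was occluded and reopened, and living CD45+ lineage-negative CD11b+ F4/80+ CD64+ cells were sorted by CD45.1 or CD45.2. CD45.1 macrophages therefore descend from the donor marrow after the transplant, and CD45.2 macrophages are host cells that remained. Only the CD45.2 cells carry Mx1-Cre and floxed Myb and lived through polyI:C, so genotype, injection and population cannot be told apart in any comparison below. Host cells may also include the progeny of host marrow that the depletion left, which the labels do not separate from older tissue macrophages. The labels give no age, and the study's methods state an age range of young adult weeks for its animals as a whole, not for each library. No label ties a library to a mouse, so the p-values measure the spread between these libraries only.

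Macrophages settle in the heart before birth and maintain themselves there with little input from blood monocytes. After an infarct, monocytes leave the blood, enter the damaged tissue and turn into macrophages that clear dead muscle cells and take part in inflammation and scar formation. Tissue macrophages of the heart are known for receptors that bind dead cells, hyaluronan and hemoglobin, whereas freshly arrived cells still carry genes of the blood monocyte.

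Library totals of the infarct zone lay between 33253340 and 55329986 counts. Of 55487 genes in the table, 18773 passed a filter on low counts. They were compared by the quasi-likelihood test of edgeR, with p-values adjusted by Benjamini-Hochberg over all of them. A gene was called when its adjusted p was under 0.05. Levels are CPM, counts scaled to the size and composition of each library. Differences are log2 ratios of resident to recruited cells, given with ± their standard error, so that a negative value means a higher level in recruited cells. Values of single libraries stand in the order S105, S109 and S113 for recruited (CD45.1) and S107, S111 and S115 for resident (CD45.2) macrophages. In these sorted pools, fewer cells of a type and less RNA per cell cannot be told apart.

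All 6 libraries expressed the genes of the sort. Ptprc, which encodes CD45, was at 442, 519 and 562 CPM in recruited and 351, 466 and 509.7 CPM in resident libraries, and its log2 fold change of -0.20 was not called (adjusted p = 0.492). Adgre1, the F4/80 gene, was higher in resident cells with 0.70 ± 0.19 (adjusted p = 0.0233), while Itgam, the CD11b gene, and Fcgr1, the CD64 gene, were higher in recruited cells with -0.95 ± 0.24 (adjusted p = 0.0167) and -1.13 ± 0.12 (adjusted p = 8.23e-05). The calls of Adgre1 and Itgam depended on single libraries, and that of Adgre1 was lost without S105, S109 or S115 (adjusted p = 0.0653 to 0.0902) and that of Itgam without S109, S111 or S115 (adjusted p = 0.0572 to 0.0639). Myb, deleted in the host, was close to 0 in both populations, at 0.362, 0.423 and 0.231 CPM in recruited and 0.339, 0.194 and 0 CPM in resident libraries, so it does not check the labels. Xist marked S105, S107, S113 and S115, and the Y-linked gene Ddx3y marked S109 and S111, so each population held 2 libraries with Xist and 1 with Ddx3y. On the first 2 principal components of the 6 libraries, which held 57.1% and 23.5% of the variance, the populations parted on the first, and S107 stood farthest out on the second at 90.09, followed by S105 at 34.43. S107 was the resident library nearest to the recruited libraries for 57.6% of the genes higher in resident cells and for 51.1% of those higher in recruited cells.

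Genes of other cell types were measured in the same libraries. Of 24 tested heart muscle genes, 13 were higher in resident cells and 0 in recruited cells, with a median log2 fold change of 1.46. The resident count was 6 without S109 and 7 without S115. Their levels were low, with Tnnt2, a troponin gene, at 3.96, 4.35 and 6.08 CPM in recruited and 11.8, 16.7 and 25.1 CPM in resident libraries. The whole list summed to 962, 735 and 764 CPM in recruited and 714, 591 and 653 CPM in resident libraries, so its sum was higher in recruited cells. Atp2a2 and Slc25a4, which cells of many types express, made up most of this sum. The sum of the remaining genes went the other way, with 75.9 to 92.2 CPM in recruited and 131 to 225 CPM in resident libraries. Myl7 was at 0 in all 6 libraries. Without Gsn and Col3a1, the fibroblast list summed to 13.9 to 87.2 CPM in recruited and 12.6 to 585 CPM in resident libraries, and the groups overlapped. The B cell list summed to 35.7 to 50.3 CPM in recruited and 153 to 298 CPM in resident libraries, mostly from Ighm. Ighm was at 16.6, 26.7 and 36.4 CPM in recruited and 108.9, 261 and 268 CPM in resident libraries. The list without Ighm and Cd22 summed to 3.77 to 7.04 CPM in recruited and 14.7 to 31.1 CPM in resident libraries, and the groups did not overlap. Of 9 tested B cell genes, 3 were higher in resident cells and 0 in recruited cells, and all 9 estimates were positive. The resident count was 2 to 3 with 1 library left out. Without Il7r and Cd4, the T and NK cell list summed to 0.611 to 2.29 CPM in recruited and 0.609 to 6.07 CPM in resident libraries. The whole neutrophil list summed to 544, 332 and 414 CPM in recruited and 343, 164 and 208 CPM in resident libraries, and the groups overlapped. Without Mmp9 and Csf3r, it summed to 197 to 232 CPM in recruited and 52.8 to 63.4 CPM in resident libraries. Its members Ly6g, Camp, Ngp and Ltf were at or near 0 in all 6. The part of these cells in the differences below was not tested, beyond a fit with the heart muscle level as a covariate that is given at the end.

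Resident macrophages expressed a broad set of genes at higher levels than recruited macrophages from the same infarct zone. Of the 18773 genes tested, 2247 (12%) were higher in resident cells and 1419 (7.56%) were higher in recruited cells. The 3 libraries of each population did not overlap for 7757 genes (41.3%). The median log2 fold change of all tested genes was 0.04. Without S104 to S107, the libraries that stand apart on the second component of all 12, 2430 genes were higher in resident cells and 1707 in recruited cells, from 2 libraries a group. With 1 library left out, the resident count was 1473 without S115 and 1519 to 2318 otherwise. The recruited count was 733 without S115, 790 without S113, 791 without S111 and 888 without S109, and 1027 and 1316 without S105 and S107.

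The differences were not of the same kind in both directions. Genes toward resident cells had a median log2 fold change of 1.54, and 875 of them differed by more than 4-fold and 289 by more than 16-fold. Genes toward recruited cells had a median of 0.71 in size, with 116 beyond 4-fold and 9 beyond 16-fold. Genes toward resident cells were of lower level, and 49.3% of them stayed under 10 CPM even in resident cells, against 13.3% of the genes of the other direction in recruited cells. Of the 4755 genes at 1 to 10 CPM, 17.3% were higher in resident cells and 3.32% in recruited cells. Of the 135 genes at 1000 CPM or more, 14.1% and 28.9% were. The median log2 fold change of all genes fell along the same scale, from 0.29 at 1 to 10 CPM to -0.32 at 1000 CPM or more, so changes of abundant genes are best read against that median. Genes higher in recruited cells took 24.0% to 24.5% of all counts of the recruited libraries and 13.3% to 15.4% of the resident libraries, and genes higher in resident cells took 5.18% to 5.29% and 11.6% to 15.6%. In each of these shares S107 was the resident library closest to recruited cells. By class, 13.7% of tested protein-coding genes were higher in resident cells and 8.92% in recruited cells, against 8.87% and 4.45% of long non-coding RNAs.

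**Figure D1:**
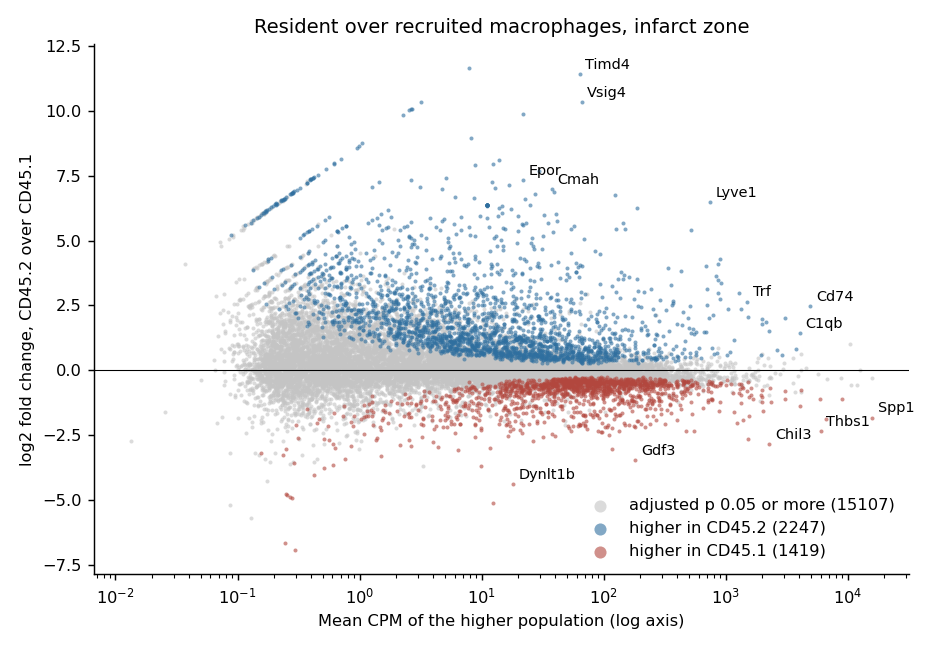
Log2 fold change of resident over recruited (vertical axis) against the mean CPM of the higher population (horizontal log axis) for the 18773 tested genes, 1 point a gene. The 2247 blue points spread widely upward at low levels, and the 1419 red points lie closer to 0 and reach the highest levels.

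The largest folds toward resident macrophages, among called protein-coding genes at 10 CPM or more without overlap or shared exons, belonged to genes that recruited macrophages hardly expressed. Timd4, a receptor for phosphatidylserine on dead cells, was at 0, 0.0705 and 0 CPM in recruited and 43.5, 60.5 and 87.6 CPM in resident libraries, and Vsig4, a complement receptor of tissue macrophages, was at 0.0805, 0.0705 and 0 CPM in recruited and 90.0, 43.7 and 65.2 CPM in resident libraries. Neither gene rose above 0.1 CPM in any recruited library, whereas every resident library exceeded 40 CPM. Timd4 had 9366 counts in all resident and 3 in all recruited libraries together, a ratio of 3108, and its 95% interval of 1063 to 15075 covers counting error only. The log2 fold change of Vsig4 was 10.34 ± 1.05 (adjusted p = 5.34e-05). Pla2g2d, a secreted phospholipase, had 3090 counts against 3, a ratio of 1026 (interval 351 to 4975).

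The same set held 3 other surface receptors. Epor, the erythropoietin receptor gene, was at 0.101, 0.235 and 0.077 CPM in recruited and 17.2, 22.1 and 25.9 CPM in resident libraries, with a log2 fold change of 7.33 ± 0.35 (adjusted p = 7.00e-07). Cd209f, a C-type lectin gene, was at 0.121, 0 and 0.0193 CPM in recruited and 23.2, 6.94 and 7.36 CPM in resident libraries, highest in S107. Cd4, best known as a T cell co-receptor, was at 0.221, 0.0705 and 0 CPM in recruited and 12.8, 12.2 and 13.8 CPM in resident libraries. Its log2 fold change was 7.02 ± 0.61 (adjusted p = 2.10e-05). The chemokine gene Cxcl13, which draws B cells, was at 0.141, 0 and 0 CPM in recruited and 24.4, 6.97 and 10.3 CPM in resident libraries. Its log2 fold change of 8.10 ± 2.11 (adjusted p = 0.0201) was lost without S105, S109 or S113 (adjusted p = 0.0681 to 0.076). Hs3st3a1, a heparan sulfate sulfotransferase, Cmah, an enzyme of sialic acid synthesis, and Tmem246 had log2 fold changes of 7.27, 6.97 and 7.12. Cmah was at 0.362, 0.259 and 0.27 CPM in recruited and 26, 42.1 and 45 CPM in resident libraries.

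The start sites of Timd4 and Vsig4 are shown because they had the largest folds by this rule and were near 0 in recruited cells. The sequences are from RefSeq on build GRCm38.p6, run from 250 bases before to 50 bases after the start, and carry in capitals the matches to the 8 motifs searched, which are listed later.
Timd4 (chr11:46810549-46810848, plus strand): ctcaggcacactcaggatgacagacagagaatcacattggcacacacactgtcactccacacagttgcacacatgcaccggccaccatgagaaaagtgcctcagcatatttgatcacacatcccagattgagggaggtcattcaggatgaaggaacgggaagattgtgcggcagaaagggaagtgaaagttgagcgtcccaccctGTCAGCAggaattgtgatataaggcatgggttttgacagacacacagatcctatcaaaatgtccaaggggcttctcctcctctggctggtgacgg
Vsig4 (chrX:96293389-96293688, minus strand): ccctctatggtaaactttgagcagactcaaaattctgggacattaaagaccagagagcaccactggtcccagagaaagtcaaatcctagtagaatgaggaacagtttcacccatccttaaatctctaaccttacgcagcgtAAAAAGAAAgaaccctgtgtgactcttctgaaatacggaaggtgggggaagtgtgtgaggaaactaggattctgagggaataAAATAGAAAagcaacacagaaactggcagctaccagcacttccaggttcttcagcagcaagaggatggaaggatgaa
The Timd4 window held 1 match to the MAF letters, at position -45 from the start and on the opposite strand, and the Vsig4 window held 2 matches to the ISRE letters, the nearer one at -27. A match is a description of letters and was not tested as a site.

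Toward recruited macrophages, the largest fold by the same rule belonged to Dynlt1b, a dynein light chain gene, at 18.9, 16.3 and 19.3 CPM in recruited and 1.45, 0.526 and 0.576 CPM in resident libraries, with -4.40 ± 0.41 (adjusted p = 3.10e-05). Its close paralogs Dynlt1a, Dynlt1c and Dynlt1f were not called, at 0.06, 0.29 and 0.22, and reads can be shared among them. Gdf3, a growth factor of the TGF-beta family, was at 232, 85.5 and 228 CPM in recruited and 28.7, 10.1 and 10.3 CPM in resident libraries, with -3.47 ± 0.62 (adjusted p = 0.00259). Chil3, a chitinase-like protein of monocytes, was at 1899, 1995 and 2944 CPM in recruited and 209, 288 and 456 CPM in resident libraries, with -2.84 ± 0.28 (adjusted p = 4.23e-05). In all of these the libraries of the populations lay apart, and resident macrophages still expressed Gdf3 and Chil3.

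Monocyte and neutrophil surface genes were in the same set. Ly6c2, which encodes the Ly6C antigen of inflammatory monocytes, was at 62.2, 99 and 126 CPM in recruited and 7.29, 22.6 and 24.6 CPM in resident libraries, with -2.40 ± 0.47 (adjusted p = 0.00425). Cd177, a neutrophil adhesion molecule, was at 63.9, 125 and 164 CPM in recruited and 3.69, 18.6 and 20.9 CPM in resident libraries, with -3.03 ± 0.57 (adjusted p = 0.00327). For both, S107 was the lowest library. Lrg1, a secreted leucine-rich glycoprotein, Vdr, the vitamin D receptor gene, Chst1, a carbohydrate sulfotransferase, and Dmkn had log2 fold changes of -2.51, -2.44, -2.74 and -2.53. Arg1, which splits arginine into ornithine and urea, was at 2535, 993 and 1066 CPM in recruited and 539, 90.5 and 107.95 CPM in resident libraries. S107 was the nearest to the recruited libraries, and -2.64 ± 0.74 (adjusted p = 0.0273) was lost without S105, S111 or S115 (adjusted p = 0.0918 to 0.0995).

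**Figure D2:**
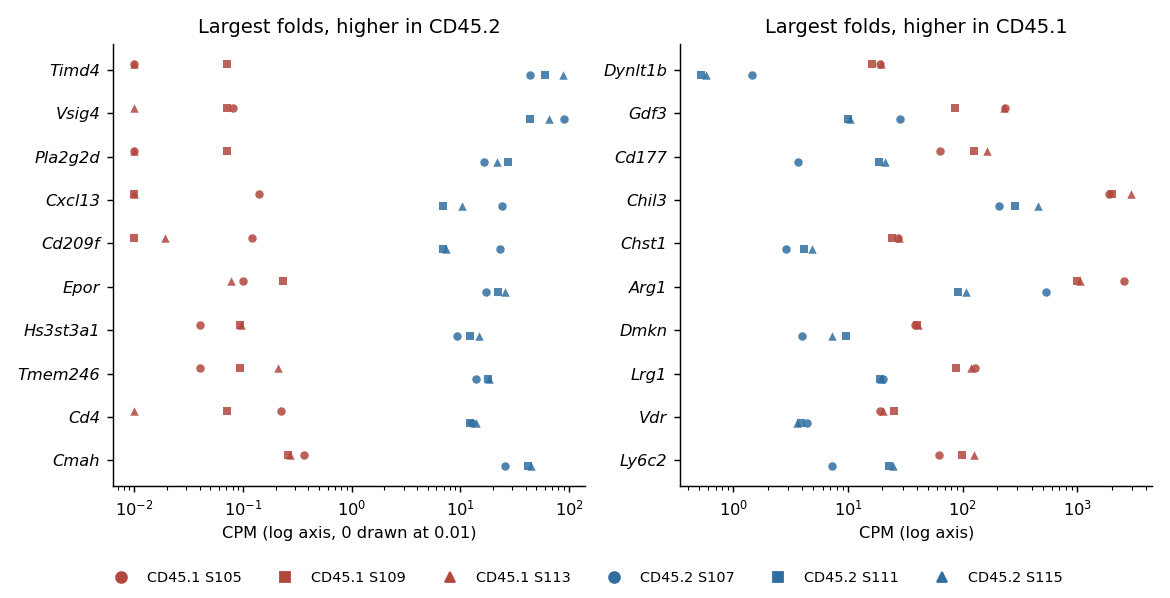
CPM (log axis, 0 drawn at 0.01) in each of the 6 libraries for the 10 genes with the largest fold in each direction, among called protein-coding genes at 10 CPM or more without overlap or shared exons. Red points are recruited and blue points resident libraries, with 1 symbol a library, and the colors do not meet for any of the 20 genes.

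Ranked by the difference in CPM, the 10 genes toward resident macrophages were Cd74, which is described with MHC class II, C1qa, C1qb, C1qc, F13a1, Serinc3, Jun, Selenop, Trf and Egr1. C1qa, C1qb and C1qc encode the chains of C1q, which starts the classical complement pathway and coats dead cells. C1qa was at 609.8, 407 and 482 CPM in recruited and 1841, 1907 and 2151 CPM in resident libraries, C1qb at 1799, 1244 and 1478 CPM in recruited and 3992, 3840 and 4398 CPM in resident libraries and C1qc at 922, 603 and 706 CPM in recruited and 2867, 3031 and 3214 CPM in resident libraries. All 3 genes were close among resident libraries, S107 included, with log2 fold changes of 1.98 ± 0.18 (adjusted p = 2.49e-05), 1.44 ± 0.16 (adjusted p = 0.000106) and 2.03 ± 0.18 (adjusted p = 2.06e-05). Trf, the iron carrier transferrin, was at 239.9, 162 and 323 CPM in recruited and 1040, 1488 and 1982 CPM in resident libraries (2.64), and Selenop, a secreted selenium carrier, at 646, 428 and 649.5 CPM in recruited and 1613, 1981 and 2408 CPM in resident libraries (1.80). The immediate early gene Egr1 was at 369, 390.2 and 337 CPM in recruited and 939, 1651 and 1987 CPM in resident libraries, with 2.06 ± 0.38 (adjusted p = 0.00291). Jun, of the same kind, had 1.5 ± 0.37 (adjusted p = 0.0154), and its call was lost without S105, S113 or S115 (adjusted p = 0.0541 to 0.0651). F13a1, the coagulation factor XIII A chain, was abundant in both populations, at 2166, 2079 and 2063 CPM in recruited and 3277, 3802 and 4183 CPM in resident libraries, with 0.84 ± 0.16 (adjusted p = 0.00429).

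Toward recruited macrophages, the largest CPM differences included genes of secreted matrix proteins and of the lysosome. Spp1, which encodes osteopontin, was at 23829, 12778 and 11012 CPM in recruited and 7905, 3015 and 2435 CPM in resident libraries. S105 and S107 were the highest of their populations, the groups did not overlap, and the log2 fold change of -1.83 ± 0.52 (adjusted p = 0.0285) was lost without S105, S111 or S115 (adjusted p = 0.103 to 0.107). Thbs1, the matrix protein thrombospondin 1, was at 6965, 3883 and 7259 CPM in recruited and 1250, 890.1 and 1393 CPM in resident libraries, with -2.36 ± 0.31 (adjusted p = 0.000319). Fn1, fibronectin, was at 6838, 8038 and 5045 CPM in recruited and 2213, 2221 and 997 CPM in resident libraries, with -1.88 ± 0.43 (adjusted p = 0.0101), and Tgfbi, a matrix protein induced by TGF-beta, was at 3363, 4588 and 4177 CPM in recruited and 1359, 1657 and 1628 CPM in resident libraries, with -1.38 ± 0.19 (adjusted p = 0.000406). These 3 genes kept their calls with any 1 library left out. The lysosomal genes Ctsd, Psap and Ctsl had -1.09, -0.75 and -1.57. Ctsd shares exons with Gm49369, which is named by the same rule at -1.10, and the calls of Ctsd and Gm49369 were lost without S105, S111, S113 or S115 (adjusted p = 0.0837 to 0.116) and without S105, S109, S111, S113 or S115 (adjusted p = 0.0574 to 0.127). Plin2, a lipid droplet coat protein, had -1.12 ± 0.29 (adjusted p = 0.0198), lost without S105, S111, S113 or S115 (adjusted p = 0.0565 to 0.0781). Spp1, Thbs1, Fn1, Ctsl, Cd74, Selenop, Jun, F13a1 and Serinc3 also share exons with other annotated genes, and the counting gave a pair of reads to each gene that it touched.

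**Figure D3:**
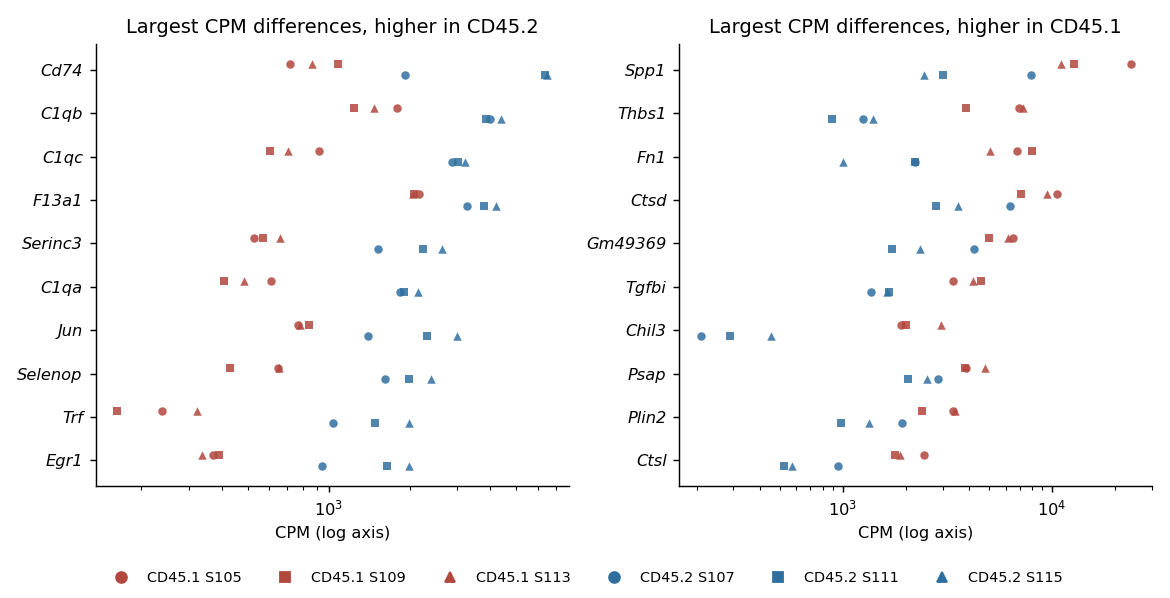
CPM (log axis) in each of the 6 libraries for the 10 genes with the largest difference in CPM in each direction. Red points are recruited and blue points resident libraries, with 1 symbol a library, and the distance between colors is small for F13a1 and Psap and large for Trf and Chil3.

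Genes were then read in 30 lists by function. Each count of members is to be read against all tested genes, of which 12% were higher in resident cells and 7.56% in recruited cells. Of the 295 called genes that these lists, the lists of cell markers and the rule for named genes hold, 205 kept their call with each of the 6 libraries left out in turn. In the resident identity list, 22 of 24 genes were higher in resident cells and 0 in recruited cells, with a median log2 fold change of 3.57, and the count was 22 in every leave-out. In the list of classical monocyte identity, 15 of 20 were higher in recruited cells and 0 in resident cells, with a median of -1.82, and 15 to 16 in the leave-outs. The resident list holds genes that the study names on these samples. Both lists were chosen with earlier results of these data known, so their direction is not independent evidence. Among the genes named from the lists, these share exons with another annotated gene, so their reads cannot be told apart from it: Azin1, Bhlhe40, C2, Ccnd1, Ccnd2, Cd55, Cebpb, Ciita, Cp, Csf1r, Csf2rb, Cx3cr1, Cxcl16, Erap1, Fcna, Folr2, Ftl1, Gas6, Hif1a, Ifi30, Il1b, Il1rap, Il4ra, Irak3, Itga4, Itgam, Itgav, Lss, Ltc4s, Maf, Mmp19, Myd88, Ndrg1, Nrg1, Pdgfc, Pfkm, Pltp, Ptgs1, Pycard, Scd2, Sema4c, Stab1, Ticam2, Tlr3, Top2a and Uck2.

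**Figure D4:**
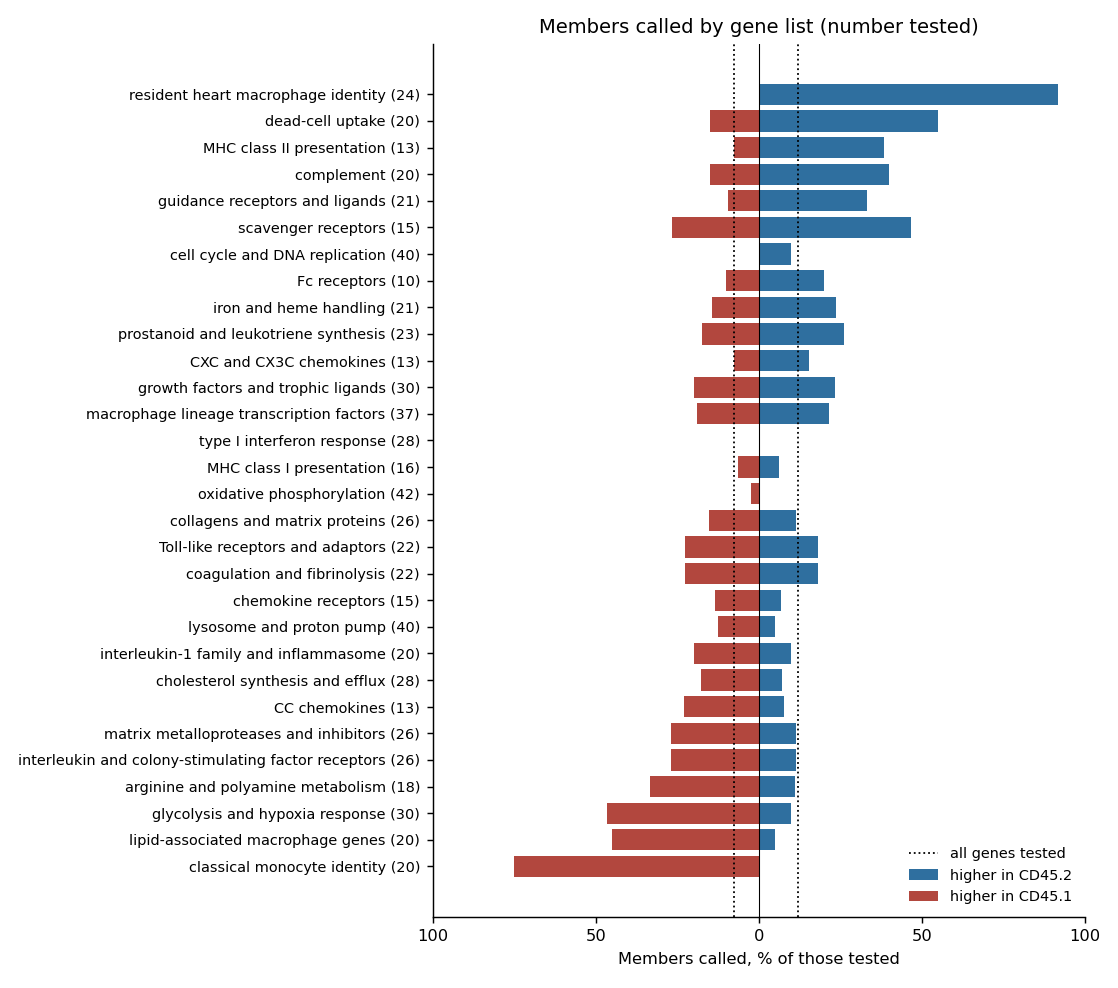
Share of tested members called higher in resident cells (blue, to the right) and in recruited cells (red, to the left) for 30 gene lists, with the number tested in brackets and all genes (12% and 7.56%) as dotted lines. Resident identity stands at 91.7% toward resident cells and monocyte identity at 75.0% toward recruited cells, and no member of the type I interferon list was called.

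Among resident identity genes, Lyve1, which binds hyaluronan, was at 6.4, 12.7 and 6.1 CPM in recruited and 588, 645 and 993 CPM in resident libraries. Mgl2, a lectin for galactose-type sugars, was at 11, 16.2 and 9.32 CPM in recruited and 389, 612 and 567 CPM in resident libraries, with a log2 fold change of 5.42 ± 0.26 (adjusted p = 7.01e-07). Fcna, the pattern recognition lectin ficolin A, was at 3.42, 3.13 and 2.16 CPM in recruited and 117, 99.1 and 160.4 CPM in resident libraries, with 5.44 ± 0.37 (adjusted p = 4.07e-06). The libraries of each population were close together in these 3 genes and the populations far apart. Igf1, a growth factor for heart muscle, was at 6.34, 8.13 and 19.7 CPM in recruited and 145, 146 and 151 CPM in resident libraries, and the 3 resident values were nearly equal. Folr2, a folate receptor gene, and Cbr2, a carbonyl reductase gene, were also higher in resident cells, with 2.67 and 3.13. Pf4 and Ninj1 were not called, with 0.05 and 0.18.

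Among monocyte identity genes, Ccr2, the receptor for the chemokine that draws monocytes out of the marrow, was at 900.1, 1560 and 1250 CPM in recruited and 194, 378 and 326 CPM in resident libraries, with -2.05 ± 0.32 (adjusted p = 0.00104). Vcan, the matrix proteoglycan versican, was at 98.8, 170.1 and 128 CPM in recruited and 17.6, 36.6 and 23.4 CPM in resident libraries, with -2.36 ± 0.33 (adjusted p = 0.000528), and Clec4e, a receptor for fungal glycolipids and dead cells, at 312, 269.9 and 305 CPM in recruited and 91.8, 82.7 and 103 CPM in resident libraries, with -1.68 ± 0.17 (adjusted p = 6.31e-05). Resident libraries held these genes at lower but not negligible levels, between 17.6 and 378 CPM. Plac8 had -2.35. Lyz2, the lysozyme gene of all myeloid cells, had 0.02 (adjusted p = 0.96), and Itga4 -0.20 (adjusted p = 0.477). Of 11 tested neutrophil genes, 3 were higher in recruited cells and 0 in resident cells, namely Mmp8, Lcn2 and Padi4.

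In the complement list, 8 of 20 genes were higher in resident cells and 3 in recruited cells. Beside C1q and Vsig4, the resident set held C4b and C2, of the classical pathway, and Cd55, a surface inhibitor. C4b was at 54.1, 36.1 and 61.5 CPM in recruited and 826, 809 and 961 CPM in resident libraries, with 4.10 ± 0.36 (adjusted p = 2.06e-05). C2 was at 0.362, 0.306 and 0.385 CPM in recruited and 13.6, 14.6 and 18.6 CPM in resident libraries, with 5.46. Cd55, at 2.87, lost its call without S105, S107 or S109 (adjusted p = 0.0539 to 0.0669). Toward recruited cells were C3, the central component, with -1.39 ± 0.25 (adjusted p = 0.0026), and the complement receptor chains Itgam and Itgax, with -0.95 and -0.92. Itgax lost its call without S109 or S115 (adjusted p = 0.0544 to 0.0581), and without S115 only 1 gene of the list was called toward recruited cells. The receptors C3ar1 and C5ar1 had -0.32 (adjusted p = 0.0717) and -0.24 (adjusted p = 0.357).

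Of 20 genes for the uptake of dead cells, 11 were higher in resident cells and 3 in recruited cells. Gas6 and Pros1 encode bridging proteins between phosphatidylserine and the receptors Axl and Mertk. Gas6 was at 119, 95.6 and 109.4 CPM in recruited and 881, 814 and 882 CPM in resident libraries, with 2.99 ± 0.28 (adjusted p = 2.95e-05), and Pros1 had 1.56 ± 0.15 (adjusted p = 3.84e-05). Axl was at 49, 52 and 86.2 CPM in recruited and 228, 422 and 469.8 CPM in resident libraries, with 2.58 ± 0.42 (adjusted p = 0.00133). Mertk was at 89.2, 57.9 and 90.1 CPM in recruited and 126, 106.1 and 141 CPM in resident libraries, and its 0.66 ± 0.21 (adjusted p = 0.0448) was lost with each library left out (adjusted p = 0.0532 to 0.153). Mfge8, another bridging protein, had 1.36. Toward recruited cells were Thbs1 and the integrin genes Itgav, lost without S107, S109, S113 or S115 (adjusted p = 0.0668 to 0.113), and Itgb5, with -2.36, -0.49 and -0.60.

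Scavenger receptors divided between the populations, with 7 of 15 higher in resident cells and 4 in recruited cells. Cd163, the receptor for hemoglobin bound to haptoglobin, was at 63.5, 29.8 and 35.3 CPM in recruited and 527, 717 and 816 CPM in resident libraries, with 4.00 ± 0.32 (adjusted p = 1.25e-05). Colec12, a scavenger receptor with a collectin domain, was at 8.71, 12 and 13.5 CPM in recruited and 156, 95.1 and 143 CPM in resident libraries, with 3.52 ± 0.26 (adjusted p = 7.63e-06). Marco, a receptor for bacteria and particles, had 454 counts in resident and 3 in recruited libraries, a ratio of 151 (interval 51.2 to 733). Mrc1, Cd36 and Stab1 differed less, with 1.16, 0.85 and 0.57. Toward recruited cells, Olr1, a receptor for oxidized lipoprotein, was at 21.3, 17.9 and 12.3 CPM in recruited and 3.52, 3.68 and 2.97 CPM in resident libraries, with -2.34 ± 0.26 (adjusted p = 0.000116), and Lrp1 had -0.65 ± 0.14 (adjusted p = 0.00829). Msr1 and Scarb1, with -0.88 and -0.64, lost their calls without S105, S109, S111 or S115 (adjusted p = 0.0651 to 0.112) and without S107, S109, S111, S113 or S115 (adjusted p = 0.0729 to 0.102), so that 2 or 3 genes were called in this direction in the leave-outs, 2 without S109, S111 or S115. Among 10 Fc receptor genes, Fcgrt, which rescues antibodies from breakdown, was at 83, 54.7 and 64.2 CPM in recruited and 697, 760.5 and 1025 CPM in resident libraries, with 3.62 ± 0.31 (adjusted p = 1.65e-05). Fcgr1, given above, went the other way, and Fcrls, at 0.82, lost its call without S107, S109, S113 or S115 (adjusted p = 0.0704 to 0.116).

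Several genes of antigen presentation by MHC class II, which shows peptides to CD4 T cells, were higher in resident macrophages. Cd74, the invariant chain, was at 716, 1084 and 869 CPM in recruited and 1925, 6402 and 6515 CPM in resident libraries, H2-Aa at 63.7, 114.5 and 86.6 CPM in recruited and 316, 1178 and 1243 CPM in resident libraries and H2-Eb1 at 34.2, 59.8 and 42.3 CPM in recruited and 310.1, 1149 and 1213 CPM in resident libraries. S107 stood between the other resident libraries and the recruited libraries in each. The log2 fold changes were 2.48 ± 0.54 (adjusted p = 0.00778), 3.37 ± 0.65 (adjusted p = 0.00412) and 4.29 ± 0.68 (adjusted p = 0.00112). In all, 5 of 13 listed genes were higher in resident cells and 1 in recruited cells, which was Ifi30, a lysosomal reductase, with -0.68 ± 0.13 (adjusted p = 0.00337). Without S109 the recruited count was 2. Ciita, the master regulator of the class, had 1.59 and was not called (adjusted p = 0.111). Without S104 to S107, 8 of the 13 were higher in resident cells. Of 16 MHC class I genes, H2-Q7 was higher in resident cells, at 4.67, 7.71 and 10.6 CPM in recruited and 51.8, 32.6 and 43.6 CPM in resident libraries, with 2.48 ± 0.33 (adjusted p = 0.000339), and Erap1, a peptide trimming enzyme, was higher in recruited cells with -0.42, lost without S109, S111 or S115 (adjusted p = 0.0556 to 0.071), while without S107 2 genes were called in this direction. Of 12 dendritic cell genes, 3 were higher in resident cells and 2 in recruited cells. The transcription factor genes Zbtb46 and Batf3 were higher in resident cells with 3.02 and 1.55, and Cd24a and Itgax were higher in recruited cells. Flt3 and Irf8 were not called, with -1.67 and -0.07. The whole list, led by Irf8 and Itgax, summed to 395, 435 and 416 CPM in recruited and 293, 388 and 360 CPM in resident libraries.

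Of 21 genes of iron and heme handling, 5 were higher in resident cells and 3 in recruited cells. Slc40a1, the iron exporter ferroportin, was at 17.7, 7.64 and 14.7 CPM in recruited and 243, 107.5 and 129.6 CPM in resident libraries, with 3.58 ± 0.45 (adjusted p = 0.000239), and S107 was the highest library. Cp, the ferroxidase ceruloplasmin, had 2.28 ± 0.26 (adjusted p = 0.000123), and Blvrb, a biliverdin reductase, 1.61 ± 0.20 (adjusted p = 0.000208). Toward recruited cells were Hp, haptoglobin, at 152, 170.1 and 221 CPM in recruited and 29.2, 43.2 and 46.5 CPM in resident libraries, with -2.19 ± 0.27 (adjusted p = 0.000195), and Lcn2, which binds bacterial iron carriers, with -1.90 ± 0.34 (adjusted p = 0.00268). Slc11a1, the iron transporter of phagosomes, had -0.51, lost without S111, S113 or S115 (adjusted p = 0.0599 to 0.0739). Hmox1, which breaks down heme, and the ferritin genes Fth1 and Ftl1 were not called, with -0.54, -0.16 and -0.29.

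Recruited macrophages expressed more of the genes of glycolysis and of the response to low oxygen. Of 30 genes, 14 were higher in recruited cells and 3 in resident cells, with a median log2 fold change of -0.85, and 27 of the 30 estimates were negative. For comparison, the median of all tested genes was -0.21 at 100 to 1000 CPM, where 21.4% were higher in recruited cells. At 1000 CPM or more it was -0.32, with 28.9% higher in recruited cells. Hif1a, the oxygen-regulated subunit of the hypoxia factor, was at 867, 862 and 918 CPM in recruited and 339.7, 277 and 275 CPM in resident libraries, with -1.57 ± 0.14 (adjusted p = 1.97e-05). Vegfa, the main growth factor of vessels, was at 139, 51.3 and 101 CPM in recruited and 28.1, 16.7 and 26.2 CPM in resident libraries, with -2.04 ± 0.41 (adjusted p = 0.00513). Hk2, which starts glycolysis, was at 49.6, 46.5 and 49.8 CPM in recruited and 30.0, 28 and 25.5 CPM in resident libraries, with -0.80 ± 0.13 (adjusted p = 0.0016), and Ero1l, an oxidase of protein folding, had -1.21 ± 0.21 (adjusted p = 0.00204). The groups did not overlap in any of these. Egln3, the prolyl hydroxylase that marks the factor for breakdown, had -2.30 ± 0.37 (adjusted p = 0.00127), and Ndrg1 -1.56 ± 0.22 (adjusted p = 0.000616). Ldha, which makes lactate, was at 1619, 1682 and 1361 CPM in recruited and 971, 667 and 638 CPM in resident libraries. Its -1.03 ± 0.26 (adjusted p = 0.0155) was lost without S109, S111 or S115 (adjusted p = 0.0523 to 0.0683).

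The count of 14 in the glycolysis and hypoxia list was 7 to 18 with 1 library left out, moved by more than 1.5 times without S105, S109, S111 or S115, and was 17 with DESeq2, 24 with limma-voom and 23 without S104 to S107. In each of the 14 genes but Ndrg1, S107 was the highest resident library. Toward resident cells were Pfkm, with 0.94 ± 0.15 (adjusted p = 0.00112), Pfkfb4, with 0.65, lost without S105, S111 or S115 (adjusted p = 0.0594 to 0.0631), and the vessel peptide gene Adm at 2.05, lost without S109 or S115 (adjusted p = 0.0675 to 0.0802). Without S115 only 1 gene was called in this direction. Among 42 genes of oxidative phosphorylation, which makes energy from oxygen in mitochondria, 0 were higher in resident cells and 1 in recruited cells, Uqcrfs1, with -0.51, lost without S105, S111 or S115 (adjusted p = 0.0521 to 0.0704). At an unadjusted p under 0.05 there were 4 of the 42, DESeq2 called 0 and 2, limma-voom 0 and 7, and without S107 there were 0 and 2.

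The start of Ldha is shown because it holds the most matches to the core letters of the hypoxia element, ACGTG, among the called genes of the list.
Ldha (chr7:46845554-46845853, plus strand): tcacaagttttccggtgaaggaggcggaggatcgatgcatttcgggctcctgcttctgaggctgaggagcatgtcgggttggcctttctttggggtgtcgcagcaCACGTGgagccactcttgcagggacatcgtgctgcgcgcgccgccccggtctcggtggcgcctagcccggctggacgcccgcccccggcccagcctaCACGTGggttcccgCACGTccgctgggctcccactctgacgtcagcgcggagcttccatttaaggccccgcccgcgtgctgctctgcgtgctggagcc
The core was matched at -145, -144, -48, -47 and -34, and adjacent positions are the same palindrome read on either strand. Of 12 genes of the list that were higher in recruited cells and had a promoter in the table, 8 held the core (66.7%). Of the 27 tested genes of the list 15 did (55.6%), against 24.9% of all tested genes. The list was chosen by hand for glycolysis and the response to low oxygen, so its share over that of all genes is no result on recruited cells.

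Lipid and arginine genes were also called more often toward recruited macrophages, but the median log2 fold changes of these 2 lists were small, at -0.25 and -0.35. For comparison, the median of all tested genes was -0.21 at 100 to 1000 CPM, where 21.4% were higher in recruited cells. At 1000 CPM or more it was -0.32, with 28.9% higher in recruited cells. Of 20 genes of lipid-associated macrophages, 9 were higher in recruited cells and 1 in resident cells, and 6 to 9 were higher in recruited cells in the leave-outs. Gpnmb, a lysosomal glycoprotein, was at 289, 360.4 and 777 CPM in recruited and 66.3, 77.1 and 136 CPM in resident libraries, with -2.35 ± 0.53 (adjusted p = 0.00956). Fabp5, a fatty acid carrier, was at 362, 179 and 417 CPM in recruited and 105.5, 40.0 and 81 CPM in resident libraries, with -2.08 ± 0.43 (adjusted p = 0.00626), and Lgals3, galectin 3, had -1.05 ± 0.23 (adjusted p = 0.00778). The exception was Pltp, which transfers phospholipid between lipoproteins, at 116, 137 and 148 CPM in recruited and 622, 830.4 and 1263 CPM in resident libraries, with 2.76 ± 0.26 (adjusted p = 3.12e-05). Trem2 and Lpl were not called, with -0.30 and -0.04, nor was Apoe, at 1.03 (adjusted p = 0.127).

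Of 18 arginine and polyamine genes, 6 were higher in recruited cells, among them Odc1, the first enzyme of polyamine synthesis, with -1.17 ± 0.23 (adjusted p = 0.00482), and Azin1, which protects it, with -0.99 ± 0.17 (adjusted p = 0.0019). Gatm, which makes the precursor of creatine, was higher in resident cells, at 87.9, 48.7 and 58.8 CPM in recruited and 208, 213 and 187 CPM in resident libraries, with 1.64 ± 0.24 (adjusted p = 0.000748), as was Ckb, a creatine kinase, with 1.13, lost without S109 or S113 (adjusted p = 0.0573 to 0.0626). Of 28 cholesterol genes, 5 (17.9%) were higher in recruited cells and 2 (7.14%) in resident cells. Scd2, a fatty acid desaturase, had -1.72 ± 0.26 (adjusted p = 0.000947). The 2 genes toward resident cells were Mylip, with 0.65, and Lss, with 0.82, lost without S105, S111, S113 or S115 (adjusted p = 0.0613 to 0.0818). The count toward recruited cells was 3 without S115. Of 40 lysosome genes, 5 (12.5%) were higher in recruited cells and 2 (5%) in resident cells. The recruited count was 3 without S111, S113 or S115 and 9 without S107. Toward resident cells was, among others, Man2b1, which cuts sugars from glycoproteins, with 0.62.

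Chemokine genes were called in both directions. Of 13 CC chemokine genes, 3 (23.1%) were higher in recruited cells and 1 (7.69%) in resident cells. Ccl9 was at 1508, 1209 and 1296 CPM in recruited and 678, 597 and 778 CPM in resident libraries, with -0.97 ± 0.15 (adjusted p = 0.000963), and Ccl6 at 3941, 2582 and 2618 CPM in recruited and 1943, 1434 and 1877 CPM in resident libraries, with -0.80, lost without S111 (adjusted p = 0.0517). Ccl2, which draws Ccr2-positive monocytes, was at 2911, 2073 and 2086 CPM in recruited and 1259, 995 and 783 CPM in resident libraries, and -1.22 ± 0.37 (adjusted p = 0.0402) was lost without S105, S109, S111, S113 or S115 (adjusted p = 0.0699 to 0.142). The call of Ccl24 toward resident cells, at 1.29, was lost without S109, S111, S113 or S115 (adjusted p = 0.11 to 0.174), and without S105 3 genes were called in this direction. Toward recruited cells only 1 was called without S111. Ccl3 and Ccl4, which draw monocytes and T cells, had 0.81 (adjusted p = 0.0679) and 0.65 (adjusted p = 0.133). Of 13 genes of the CXC and CX3C families, Cxcl16, a membrane-bound chemokine that also takes up oxidized lipid, was higher in resident cells with 0.94 ± 0.17 (adjusted p = 0.00249). Cxcl3, which draws neutrophils, was at 326, 111.9 and 164 CPM in recruited and 84.9, 28.8 and 30.7 CPM in resident libraries, with -2.06, lost without S105, S111, S113 or S115 (adjusted p = 0.0506 to 0.109). Without S107, 2 genes of this family were called toward recruited cells, and without S113 only Cxcl16 toward resident cells.

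Of 15 chemokine receptor genes, Ccr2 and Ccr1 were higher in recruited cells and Cxcr3 in resident cells. Ccr1 was at 616, 679.8 and 649 CPM in recruited and 214, 247 and 246 CPM in resident libraries, with -1.46 ± 0.18 (adjusted p = 0.000242), and Cxcr3 at 0.402, 0.917 and 0.809 CPM in recruited and 2.37, 2.74 and 2.84 CPM in resident libraries, with 1.90 ± 0.40 (adjusted p = 0.00656). Without S107, 2 genes were called toward resident cells. Cx3cr1, the fractalkine receptor of patrolling monocytes and tissue macrophages, had 0.56 and was not called (adjusted p = 0.131). Among 20 genes of the interleukin-1 family and the inflammasome, Il1rl1, the receptor for the alarm signal interleukin-33, was at 0.322, 1.29 and 0.674 CPM in recruited and 14.7, 31.5 and 30.7 CPM in resident libraries, with 5.09 ± 0.45 (adjusted p = 2.40e-05). Nlrc4, a sensor of bacterial proteins, had 0.71, and without S107 the resident count of the list was 4 in place of 2. Toward recruited cells were Mefv, which encodes pyrin, at 69.1, 113.9 and 127 CPM in recruited and 17.5, 24.6 and 25.9 CPM in resident libraries, with -2.19 ± 0.28 (adjusted p = 0.00027), the adaptor gene Pycard with -0.69 ± 0.12 (adjusted p = 0.00219), the receptor chain Il1rap with -1.17 ± 0.22 (adjusted p = 0.00335), and Nlrp3 with -0.79, lost without S105, S107, S111 or S113 (adjusted p = 0.0557 to 0.0777). Il1b had -0.83 and was not called (adjusted p = 0.147).

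Of 22 genes of Toll-like receptors and their adaptors, 4 were higher in resident cells and 5 in recruited cells. Tlr3, which senses double-stranded RNA such as polyI:C, was at 4.79, 3.93 and 5.47 CPM in recruited and 19.3, 17.9 and 17.9 CPM in resident libraries, with 1.95 ± 0.26 (adjusted p = 0.000332). Tlr12 had 3.08 ± 0.69 (adjusted p = 0.00953) and the adaptor gene Ticam2 0.54 ± 0.11 (adjusted p = 0.00478). Unc93b1, a chaperone of these receptors, had 0.61, lost without S105, S109, S111 or S115 (adjusted p = 0.0595 to 0.107). Toward recruited cells were the common adaptor Myd88, at 227, 259.8 and 247 CPM in recruited and 136, 132 and 148 CPM in resident libraries, with -0.82 ± 0.12 (adjusted p = 0.000595), and the receptors Tlr1, with -0.84, and Tlr13, with -0.69. Tlr4, with -0.39, and Irak3, with -0.38, lost their calls without S105, S111, S113 or S115 (adjusted p = 0.0937 to 0.174) and without S105, S107, S109, S111, S113 or S115 (adjusted p = 0.0583 to 0.116), so that the recruited count was 4 without S107 or S109 and 3 without any other library. In the list of 28 genes of the type I interferon response, 0 were called by edgeR's quasi-likelihood test, 0 by DESeq2 and 0 by limma-voom, 1 had an unadjusted p under 0.05, and the median log2 fold change was -0.16. Mx1 was at 16.9, 20.6 and 66.7 CPM in recruited and 12, 15 and 29.7 CPM in resident libraries, and Isg15 at 17.8, 11.9 and 42.2 CPM in recruited and 13.7, 10.5 and 20.4 CPM in resident libraries, so the populations overlapped in both. Without S113, 1 gene of the list was called. With covariates for sex and for the libraries that stand apart, 2 were called toward resident cells.

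Of 30 growth factor and trophic genes, 7 were higher in resident cells and 6 in recruited cells. Toward resident cells, Bmp2, of the bone morphogenetic family, was at 0.986, 0.682 and 1.19 CPM in recruited and 17.9, 24 and 37.3 CPM in resident libraries, with 4.78 ± 0.58 (adjusted p = 0.000197). Pdgfb and Pdgfc, platelet-derived growth factors, had 2.70 ± 0.21 (adjusted p = 7.81e-06) and 2.80 ± 0.41 (adjusted p = 0.000704), and Kitl, the ligand of the stem cell receptor Kit, had 3.22 ± 0.36 (adjusted p = 0.00012). Gdf15 and Vegfb had 1.98 and 1.36. Toward recruited cells, Osm, oncostatin M, was at 584, 495 and 503 CPM in recruited and 176, 165 and 152 CPM in resident libraries, with -1.68 ± 0.22 (adjusted p = 0.000288), and Tgfb1 at 202, 227 and 228 CPM in recruited and 105.5, 137 and 119.5 CPM in resident libraries, with -0.86 ± 0.12 (adjusted p = 0.000404). Nrg1, with -2.58, lost its call without S107, S111 or S113 (adjusted p = 0.0725 to 0.109), and Angpt2, with -1.33, without S105, S107, S109, S111 or S113 (adjusted p = 0.0526 to 0.125). Il10 had -0.81 and was not called (adjusted p = 0.259).

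Genes of lipid mediators, the leukotrienes and prostaglandins, were called in both directions. Alox5, which starts leukotriene synthesis, was at 24, 23.5 and 18.4 CPM in recruited and 280.1, 342 and 397 CPM in resident libraries, with 3.95 ± 0.18 (adjusted p = 5.71e-07). Ltc4s, which makes leukotriene C4, was at 6.22, 3.46 and 3.14 CPM in recruited and 47.5, 54.3 and 76 CPM in resident libraries, with 3.79 ± 0.36 (adjusted p = 3.12e-05), while Lta4h, which makes leukotriene B4, had -0.48 toward recruited cells, lost without S109, S111 or S115 (adjusted p = 0.0616 to 0.0903). Ltb4r1, the receptor for leukotriene B4, was at 228, 283 and 202 CPM in recruited and 55.1, 65.3 and 47.2 CPM in resident libraries, with -2.09 ± 0.29 (adjusted p = 0.000491). Hpgd, which inactivates prostaglandins, was at 1.09, 2.23 and 4.08 CPM in recruited and 118, 233 and 216 CPM in resident libraries, with 6.25 ± 0.52 (adjusted p = 1.43e-05). Ptgs1, the constitutive cyclooxygenase, had 1.69 ± 0.31 (adjusted p = 0.00316) toward resident cells, and Hpgds, a prostaglandin D2 synthase, 2.05 ± 0.29 (adjusted p = 0.000555). Ptgs2, the inducible cyclooxygenase, was at 291, 142 and 141 CPM in recruited and 110.3, 58.7 and 51.1 CPM in resident libraries, and -1.38 toward recruited cells was lost without S105, S111 or S115 (adjusted p = 0.0802 to 0.0825). In all, 6 of 23 genes were higher in resident cells, also a count of 6 in every leave-out, and 4 were higher in recruited cells, or 2 without S111 or S115.

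Matrix and clotting genes followed no single direction. Timp2, an inhibitor of metalloproteases, was at 221, 165 and 217 CPM in recruited and 1036, 967 and 1105 CPM in resident libraries, with 2.37 ± 0.20 (adjusted p = 1.65e-05), whereas Timp1 had -1.31 toward recruited cells, lost without S105, S107 or S111 (adjusted p = 0.0514 to 0.083). Mmp8 and Mmp19 were higher in recruited cells, with -2.22 ± 0.26 (adjusted p = 0.000165) and -1.54 ± 0.23 (adjusted p = 0.000895), and Adam10, a sheddase, with -0.69 ± 0.13 (adjusted p = 0.00327). Of 26 genes of this list, 7 were higher in recruited cells and 3 in resident cells, and with 1 library left out 3 to 5 were higher in recruited cells, with shifts of over 1.5 times without S105, S111, S113 or S115. Without S115, 1 gene was called toward resident cells. Of 22 coagulation genes, 5 were higher in recruited cells and 4 in resident cells. F10, coagulation factor X, was at 167, 244 and 242 CPM in recruited and 30.9, 62.5 and 51.4 CPM in resident libraries, with -2.17 ± 0.42 (adjusted p = 0.00386), and F7, with -2.27, lost its call without S105, S111, S113 or S115 (adjusted p = 0.0545 to 0.0872). Tfpi, which inhibits both, had 1.60 ± 0.21 (adjusted p = 0.000332) toward resident cells. The recruited count was 3 without S111 and 2 without S115.

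In the list of 26 collagens and matrix proteins, the median log2 fold change was 2.11, but 3 genes (11.5%) were higher in resident cells and 4 (15.4%) in recruited cells. Col14a1, a collagen bound to fibrils, was at 14.4, 13.2 and 10.1 CPM in recruited and 133, 152 and 144 CPM in resident libraries, with 3.51 ± 0.25 (adjusted p = 5.38e-06), and its groups were tight. Col1a1, the main scar collagen, was at 1.65, 13 and 14.2 CPM in recruited and 0.867, 35 and 185 CPM in resident libraries, with 2.94 (adjusted p = 0.138), and S107 was the lowest of the 6 libraries. Without S107, 6 genes were higher in resident cells, and without S104 to S107, 17 were. In the fibroblast marker list, 0 genes were higher in resident cells with all libraries, 3 without S107 and 9 without S104 to S107, and in the endothelial list 1 and 11. Fibroblast genes and collagens thus moved with the same libraries, and the part of fibroblasts in the collagen values was not tested.

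Guidance molecules, which steer growing axons and vessels, had 7 of 21 genes higher in resident cells. Sema6d was at 0.463, 1.43 and 0.712 CPM in recruited and 12.2, 32.9 and 31.6 CPM in resident libraries, with 4.89 ± 0.48 (adjusted p = 4.23e-05), and Sema4c had 2.61 ± 0.33 (adjusted p = 0.000239). Plxna2 had 2.12 ± 0.44 (adjusted p = 0.00658). Without S105, 4 genes of the list were higher in resident cells. Sema4d and Sema4b, toward recruited cells with -1.01 and -0.95, lost their calls without S107, S109, S111 or S113 (adjusted p = 0.0672 to 0.144) and without S107, S109, S113 or S115 (adjusted p = 0.0638 to 0.104). Among 26 receptors for interleukins and colony-stimulating factors, Lifr, the receptor for leukemia inhibitory factor, was at 19.2, 26.1 and 24 CPM in recruited and 96.8, 216 and 261 CPM in resident libraries, with 3.05 ± 0.43 (adjusted p = 0.000539). Csf1r, the receptor that macrophages need to survive, was at 1797, 2035 and 1940 CPM in recruited and 2386, 3093 and 3178 CPM in resident libraries, and 0.58 was lost without S105, S111 or S115 (adjusted p = 0.0567 to 0.0659). Toward recruited cells were Il4ra, at 1665, 1747 and 1576 CPM in recruited and 955, 722 and 667 CPM in resident libraries, with -1.09 ± 0.19 (adjusted p = 0.00205), Il17ra, with -1.20 ± 0.19 (adjusted p = 0.00132), Il7r, with -2.12 ± 0.34 (adjusted p = 0.00125), and Csf2rb, the shared chain of the GM-CSF receptor, with -0.72 ± 0.14 (adjusted p = 0.00418).

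Of 37 transcription factors of the macrophage lineage, 8 were higher in resident cells and 7 in recruited cells. Klf2, a factor of quiescent monocytes and vessels, was at 108.4, 71.6 and 93.7 CPM in recruited and 225, 537 and 767 CPM in resident libraries, with 2.48 ± 0.45 (adjusted p = 0.00276), and S107 was the lowest resident library. Irf4 had 2.59 ± 0.45 (adjusted p = 0.00209) and Rxra, a nuclear receptor, 0.77 ± 0.09 (adjusted p = 0.000219). Toward recruited cells, Bhlhe40 was at 129, 156 and 139 CPM in recruited and 45.14, 51 and 40.6 CPM in resident libraries, with -1.63 ± 0.17 (adjusted p = 6.60e-05), and Cebpb, of inflammatory macrophages, at 2135, 1697 and 2162 CPM in recruited and 1126, 1157 and 1278 CPM in resident libraries, with -0.75 ± 0.16 (adjusted p = 0.00758). Nfil3 and Nr4a2 had -1.47 and -1.49. Spi1, which encodes PU.1, and Maf were not called, with -0.02 and 0.15. Of 40 cell cycle genes, 4 (10%, against 12% of all tested genes) were higher in resident cells and 0 in recruited cells. In this fit the list was therefore not called more often toward resident cells than all genes. Still, 37 of the 40 estimates were positive, and the median log2 fold change was 0.67, against 0.04 for all tested genes. Ccnd1 and Ccnd2, cyclins of the entry into the cycle, were at 28, 24.4 and 22.8 CPM in recruited and 159, 86.3 and 67.5 CPM in resident libraries and at 30.4, 24 and 18.8 CPM in recruited and 85.8, 96.7 and 81.4 CPM in resident libraries, with 2.06 ± 0.33 (adjusted p = 0.00132) and 1.85 ± 0.17 (adjusted p = 3.12e-05). Ccnb2 and Hmgb2, with 1.38 and 0.41, lost their calls without S105, S111, S113 or S115 (adjusted p = 0.0513 to 0.0564) and without S107, S109, S111, S113 or S115 (adjusted p = 0.0544 to 0.119), so that the count was 2 to 3 in the leave-outs, and 2 without S111, S113 or S115. The proliferation markers Mki67, with 1.18 (adjusted p = 0.112), and Top2a, with 1.13 (adjusted p = 0.183), were not called. DESeq2 called 9 of the 40 toward resident cells, limma-voom 15, and the fit with covariates for sex and for the libraries that stand apart 22. Of all 18773 tested genes, these fits called 2771, 3571 and 3311 toward resident cells.

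Long non-coding RNAs that share no exon gave clear differences at low levels. Gm26740 was at 9.64, 11.1 and 14.4 CPM in recruited and 1.83, 1.36 and 1.19 CPM in resident libraries, with -3.01 ± 0.26 (adjusted p = 2.11e-05), and Gm36172, which lies next to Arg1 on chromosome 10, was at 6.62, 6.87 and 5.83 CPM in recruited and 1.19, 0.636 and 0.468 CPM in resident libraries, with -3.07 ± 0.50 (adjusted p = 0.00132). Toward resident cells, Gm15912 had 193 counts against 1, a ratio of 192 (interval 34.1 to 7629). The RNAs 2610035D17Rik and Gm41307 had 2.65 ± 0.36 (adjusted p = 0.000406) and 2.73 ± 0.42 (adjusted p = 0.000987). The functions of these RNAs are not annotated in the sources used here.

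Because donor and host differ at Ptprc, which encodes CD45 on chromosome 1, genes near it were counted. Within 5 Mb of Ptprc, 13 of 85 tested genes were higher in resident cells and 4 in recruited cells, against 19.5% of all genes called in either direction. In the 5 Mb after the gene, 7 of 23 were higher in resident cells and 0 in recruited cells, and 6 of the 23 differed by more than 4-fold (26.1%, against 5.28% of all genes). Of these 7 genes, 3 lost their calls with at least 1 of the libraries left out. How far the donor segment reaches is not given in the sources used here, and the part of the allele in these values was not tested.

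Promoter windows of the called genes were searched for 8 motifs on both strands. The letters were GAGGAAGT for PU.1, TGCTGAC for MAF, TGANTCA for AP-1, GGGANTTTC for NF-kB, AAANNGAAA for ISRE, TTGCNNAA for C/EBP, ACGTG for the HIF core and TCACGTGA for CLEAR, which contains the HIF core. RefSeq gave a window for 11590 tested genes, of which 2541 were called. The HIF core was in 31.2% of 1018 windows of genes higher in recruited cells, 20.5% of 1523 windows of genes higher in resident cells, 24.9% of all tested genes and 19.7% of all 27025 windows. PU.1 letters were in 5.8%, 3.35%, 3.43% and 3.28%, and the MAF letters in 3.54%, 4.6%, 3.87% and 4.58%. AP-1 was in 6.88% of the windows toward recruited cells, 4.99% of those toward resident cells and 5.48% of all tested genes. In the same order, C/EBP was in 9.14%, 9.52% and 8.46%, and ISRE in 9.04%, 7.22% and 8.1%. CLEAR was in 2.65%, 1.51% and 1.84%, and NF-kB in 0.491%, 0.722% and 1.01%. Of genes that differed by more than 4-fold, the recruited set holds only 73 windows and the resident set 543. There AP-1 was in 16.4% and 6.08%, C/EBP in 16.4% and 10.1%, and ISRE in 15.1% and 7.92%. PU.1 was in 8.22% and 4.42%, the MAF letters in 6.85% and 3.87%, and the HIF core in 28.8% and 17.7%. CLEAR was in 2.74% and 0.737%, and NF-kB in 1.37% and 0.921%. These shares are descriptions without a test, and base composition differs between promoters.
The window of Ly6c2 is shown because it held the PU.1 letters at 2 places, 1 of them at position 27, past the start.
Ly6c2 (chr15:75111922-75112221, minus strand): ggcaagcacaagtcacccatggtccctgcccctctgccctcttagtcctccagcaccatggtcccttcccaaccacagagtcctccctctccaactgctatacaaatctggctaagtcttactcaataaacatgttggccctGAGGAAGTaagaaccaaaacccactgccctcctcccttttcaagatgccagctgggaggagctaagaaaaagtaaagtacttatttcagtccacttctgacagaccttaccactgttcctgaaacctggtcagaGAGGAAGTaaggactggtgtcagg

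The difference between the populations was then compared with that in the remote zone, which used the other 6 libraries. The change of the difference from remote to infarct zone was called for 0 of 18773 genes (0%) by edgeR's quasi-likelihood test, where 821 genes had an unadjusted p under 0.05 and the smallest adjusted p was 0.0556. DESeq2 called 163, limma-voom 25, and the same test without S104 to S107 called 35. Of the 163, 152 had the same sign in both zones and the smaller difference in the infarct zone, and 137 were higher in recruited cells in the remote zone. All 25 genes of limma-voom were of this kind, higher in recruited cells and closer in the infarct zone.

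Genes with the smallest p for this change came from the recruited set. Clec4e was at 176, 283 and 181 CPM in recruited and 19.7, 19.5 and 17.9 CPM in resident libraries of the remote zone, a log2 fold change of -3.49, against -1.68 in the infarct zone. Bhlhe40 had -3.43 and -1.63, and Uck2, a kinase of uridine salvage, -4.19 and -1.68. The adjusted p of the change was 0.0556 for each of these 3 genes. Chil3 had -4.98 and -2.84 (adjusted p = 0.0919), and Thbs1 -4.46 and -2.36 (adjusted p = 0.164). Resident macrophages were nearer to recruited cells in the infarct zone for each. Over the 1419 genes higher in recruited cells, the median log2 fold change was -0.71 in the infarct and -0.91 in the remote zone, and 1126 of them differed less in the infarct zone. Over the 2247 genes higher in resident cells, the medians were 1.54 and 1.49, and 1186 differed less in the infarct zone. These genes were chosen by their infarct zone values, so the counts are descriptions.

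**Figure D5:**
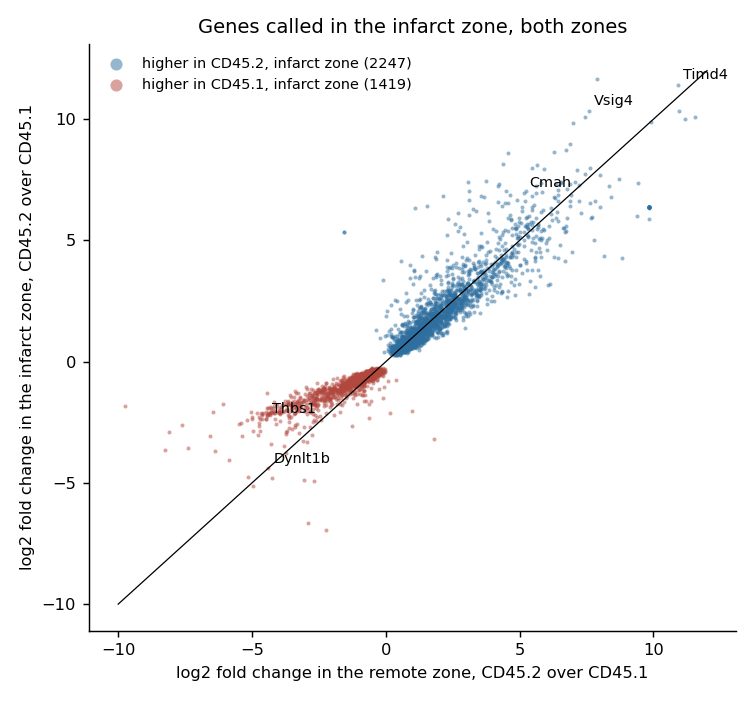
Log2 fold change of resident over recruited in the infarct zone (vertical axis) against that in the remote zone (horizontal axis) for the genes called in the infarct zone, with a line at equal change. Blue points, higher in resident cells, scatter around the line, and of the red points, higher in recruited cells, 1126 of 1419 lie nearer to 0 in the infarct zone.

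With the mean log2 level of the heart muscle genes as a covariate, 537 genes were higher in resident cells and 211 in recruited cells, and 75 of 182 called genes named by rule kept their call. That level was 0.76 to 1.23 in the recruited cells and 1.81 to 2.50 in the resident libraries of the infarct zone, so the covariate follows the populations and takes up part of the contrast. In this fit 17 genes of the resident identity list and 7 of the complement list were called toward resident cells, whereas 2 of the glycolysis and hypoxia list were called toward recruited cells and 0 of MHC class II toward resident cells.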

How the data were processed

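RNA of sorted macrophages was amplified with SMART-Seq v4, made into libraries with Nextera XT and sequenced on a HiSeq4000. Per the labels and the study's methods, the authors trimmed reads, aligned them with HISAT2 2.2.1 to GRCm38.p6 and deposited raw counts per gene from featureCounts of Subread 2.0.1, without strand, giving a pair to each gene it touched. Genes on opposite strands that overlap can therefore share counts.

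Counts were filtered with filterByExpr (minimum count 10, minimum total 15), scaled by TMM and fitted in edgeR 4.0.16 (R 4.3.3, limma 3.58.1) with 1 mean per group over all 12 libraries, which share 1 estimate of spread. The test was the quasi-likelihood test, two-sided, with Benjamini-Hochberg adjustment over all 18773 genes. DESeq2 1.42.0 and limma-voom were alternatives, beside other scaling, filters, covariates and leaving out libraries. The fitting was tested on simulated data. Members and lists were chosen with earlier results of these data known. Named by rule, in each direction, were the 10 called protein-coding genes with the largest fold at 10 CPM or more, without overlap or shared exons, the 10 with the largest CPM difference, the 5 with the smallest p between zones and the 5 long non-coding RNAs with the smallest p, with the 4 members of each list of smallest p, checks of the labels and called genes near Ptprc. Other members of lists are named for their role, with their values whether or not they were called. Intervals of count ratios are exact binomial. Some genes that these rules name are not reported here, but remain in the counts.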

Additional observations from a re-analysis of the deposited data

How the results depend on the processing

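No label ties libraries to an animal or to each other, so the main fit holds no pairing or block. A pairing by animal could not be set from the labels. The covariates for sex and for the 4 libraries that stand apart divide the 12 libraries into 3 sets, S104 to S107, S108 to S111 and S112 to S115, with 1 library of each group in each, so that this fit equals one with the sets as a block. Genes higher in resident macrophages numbered 3571 with limma-voom, 3311 with these covariates, 537 with the heart muscle covariate, 1344 without genes that share exons, 639 when tested for more than 2-fold and 1473 to 2318 with 1 library left out, against 2247. Genes higher in recruited macrophages numbered 3104 with limma-voom, 2430 with these covariates, 211 with the heart muscle covariate, 789 without genes that share exons, 95 when tested for more than 2-fold and 733 to 1316 with 1 library left out, against 1419. The change between zones, called for 0 genes, was called for 163 with DESeq2, 25 with limma-voom, 35 without S104 to S107 and 94 with these covariates. The direction with more called genes turned under at least 1 setting in 9 of the 30 lists: CC chemokines, growth factors, Toll-like receptors, lineage transcription factors, coagulation, collagens, lipid-associated genes, the interleukin-1 family and the receptors for interleukins and colony-stimulating factors. The cause of these changes was not tested. The covariate for heart muscle follows the populations, so the fit with it cannot part muscle level and population. With 3 libraries a group, genes of low count have wide errors.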

Other observations

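Some genes of the lists that stand in no comparison above also differed. In resident macrophages, the lectin gene Clec10a was at 16.4, 12.1 and 18.1 CPM in recruited and 35.4, 47.2 and 59 CPM in resident libraries, with 1.60 ± 0.33 (adjusted p = 0.00612), and Txnip, which binds thioredoxin and limits glucose uptake, had 2.02 ± 0.32 (adjusted p = 0.00128). Unc5b, a netrin receptor, and Plxnb1, a semaphorin receptor, had 1.85 and 2.97, lost without S105, S111, S113 or S115 (adjusted p = 0.0672 to 0.104) and without S105, S109 or S111 (adjusted p = 0.0509 to 0.0663). In recruited macrophages, Gsr, which regenerates glutathione, and Msrb1, which repairs oxidized methionine, had -1.25 ± 0.23 (adjusted p = 0.00281) and -1.76 ± 0.29 (adjusted p = 0.0015). Ass1 and Arg2, both of arginine metabolism, had -1.12, lost without S111 (adjusted p = 0.0621), and -1.01. F5, coagulation factor V, was at 4.97, 9.31 and 12.2 CPM in recruited and 2.77, 1.63 and 1.85 CPM in resident libraries, with -2.08, lost without S111 or S115 (adjusted p = 0.0508 to 0.0531). All of these values come from edgeR's quasi-likelihood test.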
